A study of Mus musculus with 8 samples.

Results

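The genes described here are 37 RNA-binding proteins and splicing regulators of neurons. They were chosen by name from general knowledge, with earlier results of these data known. The set holds the Elavl, Celf, Nova, Rbfox, Musashi, Khdrbs, Ptbp, Mbnl, Fmr1/Fxr, Staufen and Cpeb families with Qk, Srrm4 and Pum2. Every probe set carrying one of these names as its single gene symbol was taken and kept separate, which gave 125 of the 45037 probe sets on the array and at least 1 for each of the 37 genes. They were measured in the striatum of newborn mice (postnatal day 0, strain BALB/c), in tissue punches of 500 µm diameter from coronal slices of 300 µm. The 8 Affymetrix arrays held RNA from 3 wild type mice, 1 mouse heterozygous for a Ctip2 mutation and 4 Ctip2 null mutants, each array a different animal. Ctip2, now named Bcl11b, is a zinc finger protein that binds DNA and is made in medium spiny neurons, the main output cells of the striatum. The sources used here do not give which part of the gene was deleted. The comparison asks which of these genes differ in striatum that lacks the factor.

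RNA-binding proteins decide which exons a neuron joins into its messenger RNAs, how long those messages last and where they are translated. The neuronal Elavl (Hu) proteins bind U-rich stretches and stabilise messages, Nova, Rbfox, Ptbp, Celf, Mbnl and Khdrbs proteins mainly steer alternative splicing, and Musashi, FMRP, Pumilio, Staufen and Cpeb proteins act mainly on transport and translation. During brain development Ptbp1 and the Musashi proteins are typical of progenitors, while Elavl3, Elavl4, Celf4 and Rbfox3 mark differentiating or mature neurons. A gene expression array reads the level of these regulators' own messages and not the splicing of their targets.

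All values are deposited log2 expression levels of single probe sets, so that a difference of 1 is a 2-fold change, and errors beside means are SDs. Array medians lay between 6.21 and 6.35, and the SD of log2 values across an array lay between 1.84 and 1.97 in wild type, between 1.90 and 2.05 in null arrays and at 2.06 in the heterozygote. Bcl11b was lower in the null arrays on all 4 of its probe sets, by 2.16-fold to 3.16-fold, with no overlap between wild type and null arrays. Medium spiny neuron markers were present at mean log2 levels of 9.93 to 10.16 in wild type and 9.98 to 10.16 in null arrays. The mean level of cortical glutamatergic neuron markers, at 5.40 to 5.53 and 5.21 to 5.34, lay below the array medians. Of these markers, Neurod2 (group means 7.51 and 7.32) and Emx1 (7.35 and 7.07) lay above the medians. Mean marker levels of choroid plexus ranged from 6.20 to 6.95 in wild type and from 5.68 to 7.04 in null arrays, and its main product Ttr was highest in wild type 1 (13.34) and null 2 (13.44).

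Many of the regulators were higher in null striatum and none passed the test as lower. At an adjusted p under 0.05 (limma, Benjamini-Hochberg over all 45037 probe sets), 18 of the 125 probe sets, from 10 genes, rose, 0 fell and 107 did not pass. This was 14.4% of the members' probe sets, against 1.87% of all probe sets that rose and 0.453% that fell (2.32% in either direction). The members were chosen with earlier results of these data known, so this contrast is not an independent test. Leaving out single arrays gave 10 (without wild type 2 or 3) or 11 (without null 1 or null 2) to 30 (without wild type 1) risen member probe sets, where 0.613%, 0.466%, 0.719%, 0.626% and 3.85% of all probe sets rose in the fits without wild type 2, wild type 3, null 1, null 2 and wild type 1. Among probe sets with a mean log2 value of at least 6, 18 of 97 members and 2.99% of all rose. All 4 null arrays lay above all 3 wild type arrays on 37 member probe sets and below them on 4, where 7.7% and 8.85% of all probe sets did so. The median difference, null minus wild type, was 0.24 over the members and -0.08 over all probe sets. At an unadjusted p under 0.05 the members counted 51 higher and 3 lower of 125 probe sets, against 10.9% higher and 8.74% lower of all probe sets. In tissue punches, fewer cells of a type and less RNA per cell cannot be told apart.

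**Figure D1:**
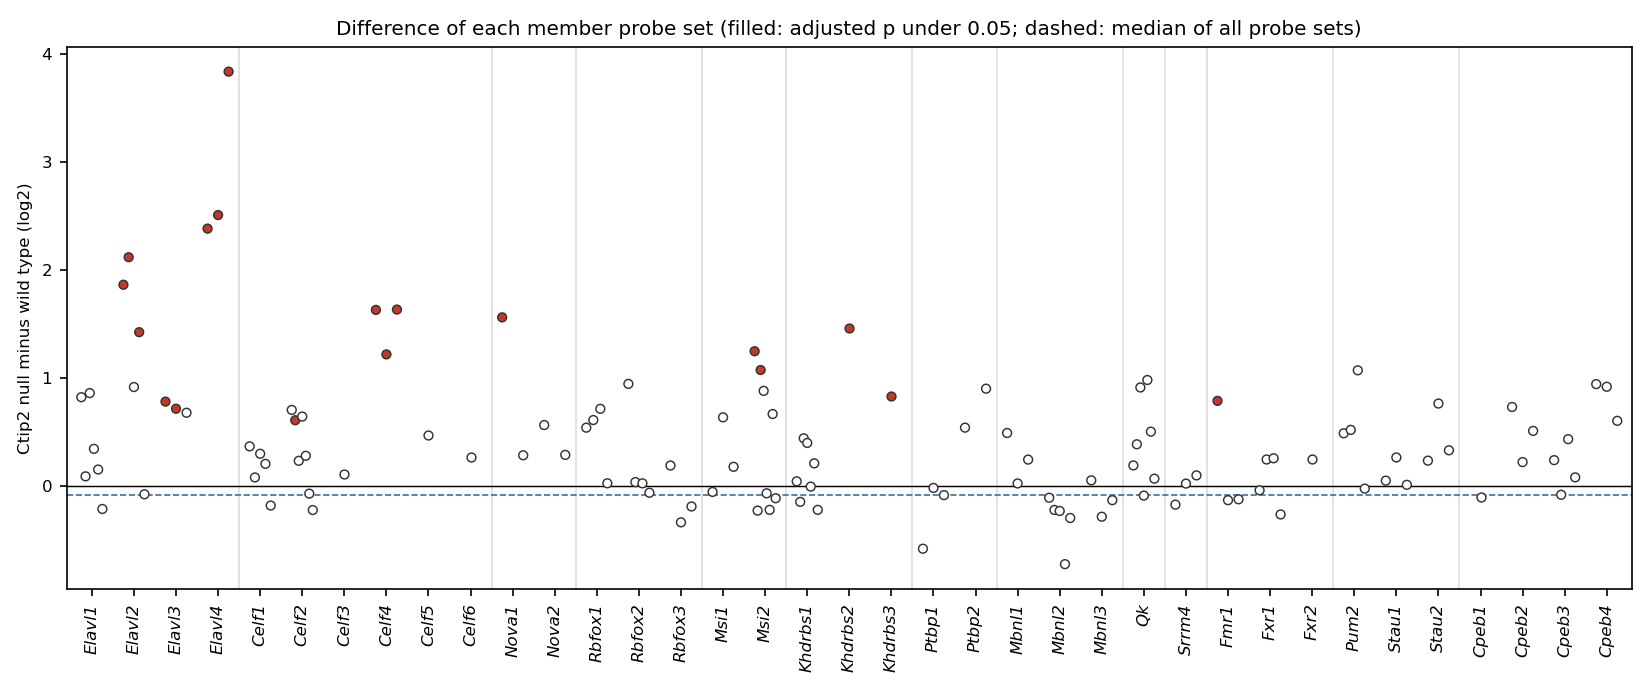
The difference, Ctip2 null minus wild type on the log2 scale, is plotted for each of the 125 member probe sets, grouped by gene; filled points passed an adjusted p of 0.05 and the dashed line marks the median of all probe sets at -0.08. The filled points, 18 in number, all lie above 0 and are led by the 3 probe sets of Elavl4.

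The neuronal Elavl genes included the largest rises among the members. Of 17 Elavl probe sets 8 rose, all of them in Elavl2, Elavl3 and Elavl4, and 0 fell. Elavl4 (HuD), which stabilises messages in differentiating neurons, rose on all 3 of its probe sets. On the probe set 1452894_at it read 5.12, 5.10 and 5.86 in wild type 1 to 3 and 9.12, 9.57, 9.97 and 8.12 in null 1 to 4. Its lowest null array was thus over 2 log2 units above its highest wild type array. The rise was 14.3-fold (log2 difference 3.84, SE 0.38; limma adjusted p = 0.00189). The wild type values lay below the array medians, where arrays measure fold changes with the least precision. The brightest probe set, 1450258_a_at, read 7.08, 7.36 and 7.81 in wild type and 9.70, 10.26, 10.36 and 8.87 in null arrays, a rise of 5.22-fold (limma adjusted p = 0.0083). The remaining probe set, 1428741_at, read 6.53, 6.59 and 6.92 in wild type (6.68 ± 0.21, SD, n = 3) and 9.30, 9.61, 9.82 and 8.02 in null arrays (9.19 ± 0.80, SD, n = 4), 5.69-fold higher (limma adjusted p = 0.00934). On each of the 3, null 4 was the lowest of the null animals and null 3 the highest.

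Elavl2 (HuB), a close relative made in neurons and germ cells, rose on 3 of 5 probe sets. On the brightest, 1421883_at, wild type 1 to 3 read 8.64, 8.26 and 8.64, and null 1 to 4 read 10.38, 10.56, 10.77 and 9.80. This was a 3.64-fold rise (log2 difference 1.86, SE 0.22; limma adjusted p = 0.00402). The probe set 1421882_a_at read 8.53, 7.29 and 7.78 in wild type against 9.83, 10.25, 10.51 and 9.34 in null arrays, 4.34-fold higher (limma adjusted p = 0.0120). On 1421881_a_at the wild type values were 7.44, 6.78 and 6.89 and the null values 8.28, 8.71, 9.06 and 7.79, 2.68-fold higher (limma adjusted p = 0.0339). Groups did not overlap on any of these, and null 3 was again highest and null 4 lowest. The 1421882_a_at call did not hold when wild type 2 (limma adjusted p = 0.0501) or wild type 3 (0.0674) was dropped. The 1421881_a_at call did not hold when either of them, or null 1, 2 or 3, was dropped (adjusted p of up to 0.145). The probe set of largest opposite difference, 1433052_at, read 6.43, 6.37 and 6.47 against 6.24, 6.17, 6.33 and 6.64, a difference of -0.08 with overlap (limma adjusted p = 0.734).

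Elavl3 (HuC), a marker of newly formed neurons, rose less. Its brightest probe set, 1435871_at, read 10.29, 9.87 and 10.21 in wild type and 10.77, 10.96, 11.23 and 10.65 in null arrays, 1.72-fold higher (limma adjusted p = 0.0472). The probe set 1452524_a_at read 8.51, 8.73 and 8.68 against 9.42, 9.63, 9.33 and 9.04, 1.64-fold higher (limma adjusted p = 0.0464). The groups did not overlap, yet both calls were near the threshold. The 1435871_at call did not hold when any 1 array other than wild type 1 or null 4 was dropped (adjusted p of up to 0.176). The 1452524_a_at call held only when null 4 was the array dropped (adjusted p otherwise of up to 0.139). Elavl1 (HuR), the relative made in all cells, had 0 of 6 probe sets past the threshold. On its brightest, 1431037_a_at, it read 8.10, 7.66 and 7.84 in wild type and 8.41, 8.85, 9.05 and 8.43 in null arrays, a difference of 0.82 (95% interval 0.40 to 1.24; limma adjusted p = 0.0548). This difference was larger than those of 1435871_at (0.78) and 1452524_a_at (0.71) of Elavl3. Its call was gained without wild type 1 or null 4. Of the 14 other fits and thresholds, it stayed without a call in 7 and gained one in the rest.

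**Figure D2:**
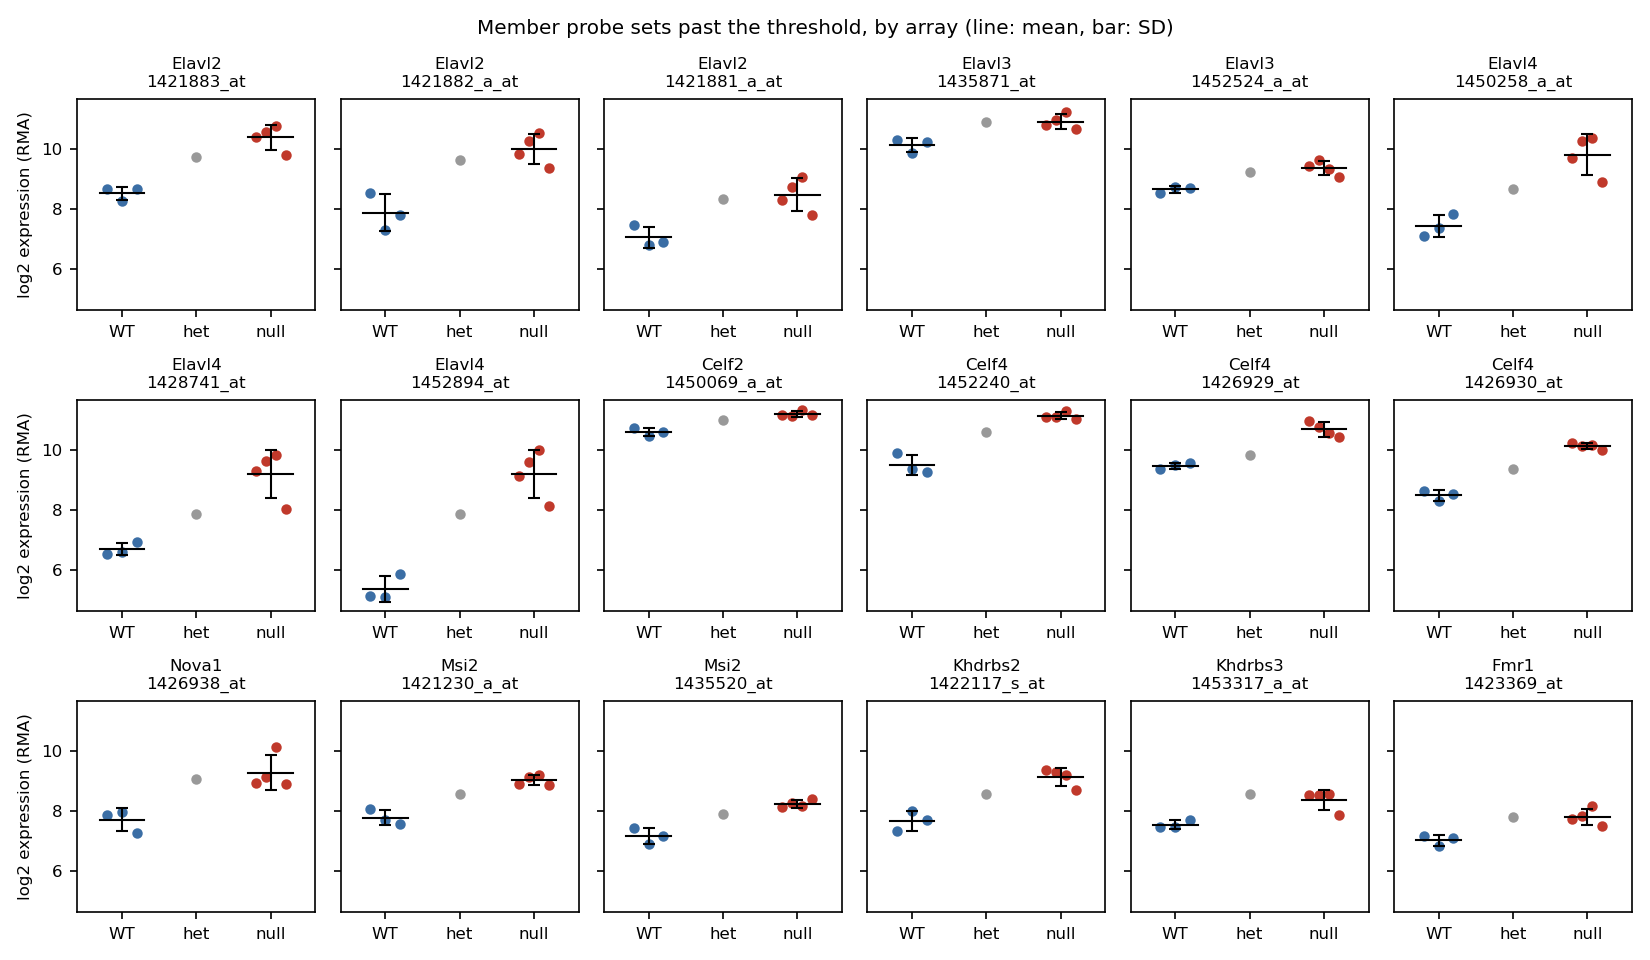
Each panel plots 1 of the 18 member probe sets that rose, with the log2 expression value of every array in wild type (WT, blue), heterozygous (het, grey) and Ctip2 null (red) striatum; lines are group means and bars SDs. In every panel the 4 null arrays sit above the 3 wild type arrays, and the single heterozygote lies above all wild type arrays.

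The 250 bases before the transcription start of Elavl2, Elavl3 and Elavl4 are shown because these 3 relatives rose together; they come from RefSeq (GRCm38.p6), with 1 window per gene, that of highest CpG count where a gene has several starts. Capitals mark CAGCTG, an E-box read by proneural factors, TGACCA or its reverse complement TGGTCA, a motif bound by the Bcl11b relative BCL11A, and TATAAA or its reverse complement, searched on both strands; the marked motifs do not overlap.
Elavl2: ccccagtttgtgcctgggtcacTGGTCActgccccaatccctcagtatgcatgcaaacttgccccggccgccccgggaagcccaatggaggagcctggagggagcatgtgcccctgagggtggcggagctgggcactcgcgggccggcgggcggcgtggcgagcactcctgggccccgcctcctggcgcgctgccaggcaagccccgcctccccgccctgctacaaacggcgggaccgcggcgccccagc
Elavl3: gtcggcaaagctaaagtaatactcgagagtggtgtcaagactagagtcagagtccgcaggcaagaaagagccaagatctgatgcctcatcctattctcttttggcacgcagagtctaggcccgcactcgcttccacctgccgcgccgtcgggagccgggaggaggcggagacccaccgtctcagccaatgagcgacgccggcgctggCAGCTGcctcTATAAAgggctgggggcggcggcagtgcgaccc
Elavl4: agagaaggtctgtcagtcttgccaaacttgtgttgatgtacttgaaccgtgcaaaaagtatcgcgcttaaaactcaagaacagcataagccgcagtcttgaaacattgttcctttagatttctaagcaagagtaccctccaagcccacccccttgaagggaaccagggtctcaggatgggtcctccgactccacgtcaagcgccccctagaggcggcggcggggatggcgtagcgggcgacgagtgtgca
These windows lie at chr4:91372041-91372290, chr9:22052024-22052273 and chr4:110351912-110352161, all on the minus strand. That of Elavl2 holds 1 TGGTCA, starting 228 bases before the start site, that of Elavl3 1 CAGCTG at 43 bases and 1 TATAAA at 33 bases, and that of Elavl4 none of them. Over 27025 genes with a window, 11.3% held TGACCA, 12.7% CAGCTG and 12.5% TATAAA. A window was matched for 30 of the 37 members, of which 3 held TGACCA, 4 CAGCTG and 2 TATAAA, and among the 8 matched genes with a risen probe set the counts were 1, 2 and 1. Also searched were CACGTG, held by 3 of 30 members and 6.19% of all genes, GGCCGG, held by 14 and 16.7%, and the RE1 fragment TTCAGCACC, held by 0 and 0.292%. The median number of CpG dinucleotides in the window was 21 over the members and 6 over all genes. All genes here means the 27025 with a window, which were not limited to genes on the array. Taking the window of highest CpG count also favours genes with several starts.

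Among the splicing regulators, Celf4 rose with the smallest adjusted p of all members. Of 18 Celf probe sets 4 rose, 3 of Celf4 and 1 of Celf2, and 0 fell. Celf4, a neuronal protein that binds messages of excitability genes, read 8.64, 8.27 and 8.53 on 1426930_at in wild type and 10.21, 10.13, 10.14 and 9.97 in null arrays. The null animals differed little among themselves and all exceeded wild type, a rise of 3.10-fold (log2 difference 1.63, SE 0.13; limma adjusted p = 7.36e-04). On 1452240_at it read 9.89, 9.34 and 9.27 against 11.10, 11.10, 11.30 and 11.01, 3.10-fold higher (limma adjusted p = 0.00199). On 1426929_at it read 9.35, 9.47 and 9.54 against 10.96, 10.76, 10.54 and 10.41, 2.33-fold higher (limma adjusted p = 0.00491). All 3 calls held with any 1 array left out.

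Celf2, made in neurons and other tissues, rose on 1 of 7 probe sets. On 1450069_a_at it read 10.72, 10.44 and 10.60 in wild type and 11.17, 11.14, 11.34 and 11.14 in null arrays, 1.52-fold higher (limma adjusted p = 0.0362). This call did not hold when any 1 array other than wild type 1 or null 4 was dropped (adjusted p of up to 0.139). Null arrays lay above wild type on 4 of the 7 probe sets. The largest opposite difference, -0.23, was on the dim probe set 1444533_at, which read 3.62, 3.83 and 3.73 against 3.51, 3.39, 3.25 and 3.85, with overlap (limma adjusted p = 0.409). The other Celf genes did not pass. Celf5, also neuronal, read 10.88, 10.76 and 10.84 in wild type and 11.38, 11.37, 11.24 and 11.20 in null arrays (difference 0.47, limma adjusted p = 0.0688), without overlap. Celf1, the broadly made relative, read 11.05, 10.66 and 10.45 against 11.03, 11.17, 11.22 and 10.92 on its brightest probe set (95% interval of the difference 0.01 to 0.72; limma adjusted p = 0.247). Here wild type 1 lay within the null range. Celf3 read 8.04, 8.15 and 8.03 against 8.32, 7.99, 8.05 and 8.38 (95% interval of the difference -0.19 to 0.41). Celf6 read 7.40, 7.78 and 7.58 against 7.99, 8.39, 7.44 and 7.58 (95% interval of the difference -0.23 to 0.76), and both of these neuronal relatives had overlapping groups.

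Nova1, a neuronal splicing factor, rose on its brighter probe set, while its relative Nova2, abundant in cortex, did not pass. Nova1 read 7.87, 7.97 and 7.26 in wild type and 8.92, 9.12, 10.13 and 8.87 in null arrays on 1426938_at, 2.95-fold higher (limma adjusted p = 0.0302). Null 3 stood above the other null animals, and the call did not hold when wild type 2 or 3, or null 1 or 2, was dropped (adjusted p of up to 0.135). Nova2 read 9.82, 9.69 and 9.73 against 10.24, 10.41, 10.54 and 10.04 on 1439192_at (difference 0.56, limma adjusted p = 0.0762), again without overlap.

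Khdrbs2 and Khdrbs3 (SLM1 and SLM2), which set the splicing of neurexins in neurons, rose. Khdrbs2 read 7.31, 7.99 and 7.68 in wild type and 9.36, 9.27, 9.17 and 8.70 in null arrays on its only probe set, 2.76-fold higher (limma adjusted p = 0.0079). The suffix _s_at of that probe set means, in the array's naming, that its probes can match more than 1 transcript, so a part of its signal may come from a related message. Khdrbs3 read 7.44, 7.45 and 7.70 against 8.52, 8.51, 8.55 and 7.87, 1.78-fold higher (limma adjusted p = 0.0487). Its null 4 was near wild type, and the call held only when null 4 was the array dropped (adjusted p otherwise of up to 0.173). Khdrbs1 (Sam68), made in most cells, had 0 of 7 probe sets past the threshold, and its brightest, 1434541_x_at, read 10.09, 9.86 and 10.04 against 9.99, 10.10, 10.18 and 9.88 (95% interval of the difference -0.24 to 0.32).

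The remaining splicing regulators had no probe set past the threshold. Differences ran from 0.02 to 0.71 on the 4 probe sets of Rbfox1 and from -0.07 to 0.94 on the 4 of Rbfox2. They ran from -0.34 to 0.19 on the 3 of Rbfox3, which encodes the mature neuron antigen NeuN and had null arrays below wild type on 2 probe sets. Ptbp1, the repressor of neuronal exons in progenitors, differed by -0.58 to -0.02 on its 3 probe sets and its neuronal successor Ptbp2 by 0.54 and 0.90 on its pair. All 5 probe sets of Mbnl2, a regulator of postnatal splicing, were lower, by -0.73 to -0.11. The largest of these differences, on 1433754_at, separated the groups (limma adjusted p = 0.0742). Mbnl1, Mbnl3, the glial regulator Qk and the microexon regulator Srrm4 ranged from 0.02 to 0.49, from -0.29 to 0.05, from -0.09 to 0.98 and from -0.18 to 0.10.

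Among regulators of translation and transport, Msi2 and Fmr1 rose. Musashi-2, typical of progenitors and of some neurons, rose on 2 of the 8 probe sets of Msi2. On 1421230_a_at it read 8.04, 7.69 and 7.56 in wild type and 8.88, 9.12, 9.18 and 8.86 in null arrays, 2.37-fold higher (limma adjusted p = 0.00465). On 1435520_at it read 7.41, 6.88 and 7.17 against 8.13, 8.24, 8.14 and 8.40, 2.10-fold higher (limma adjusted p = 0.0083), and here null 4 was the highest. Both calls held with any 1 array left out. The relative Msi1 read 8.41, 8.59 and 8.52 against 8.51, 8.65, 8.27 and 8.37 on its brightest probe set, with overlap (95% interval of the difference -0.35 to 0.23). Of other markers of progenitors and dividing cells, 1 of 10 genes rose (Sox2, 1.61-fold), 0 fell, and the mean level was 8.26 to 8.40 in wild type and 8.22 to 8.56 in null arrays; the part of progenitors in the Msi2 rise was not tested.

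Fmr1, whose product FMRP represses translation at synapses, rose on 1 of 3 probe sets. It read 7.15, 6.80 and 7.08 in wild type and 7.73, 7.83, 8.14 and 7.48 in null arrays on 1423369_at, 1.73-fold higher (limma adjusted p = 0.0458). The groups did not overlap, but the call did not hold when any 1 array other than wild type 1 or null 4 was dropped (adjusted p of up to 0.173). The probe set 1452550_a_at read 7.12, 7.62 and 7.15 against 7.14, 7.18, 7.19 and 7.13, a difference of -0.13, where wild type 2 was the highest array and the other 6 lay close together (limma adjusted p = 0.583). The relative Fxr1 read 8.64, 8.25 and 8.08 against 8.21, 8.59, 8.71 and 7.62 on its brightest probe set (95% interval of the difference -0.61 to 0.52), with null 4 lowest. Fxr2 read 8.52, 8.25 and 8.38 against 8.55, 8.60, 8.87 and 8.50 (95% interval of the difference -0.06 to 0.55), nearly without overlap. No probe set of Pum2, Stau1, Stau2 or the 4 Cpeb genes passed. Differences ran from -0.03 to 1.07 in Pum2, from 0.01 to 0.26 in Stau1 and from 0.23 to 0.76 in Stau2, which carries messages into dendrites. In the Cpeb family, which controls poly(A) tail length, they ran from 0.22 to 0.73 in Cpeb2 and from 0.60 to 0.94 in Cpeb4, and between -0.11 and 0.43 in Cpeb1 and Cpeb3.

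Close to the threshold, 11 higher and 1 lower member probe sets had an adjusted p between 0.05 and 0.1, as did 1.89% (higher) and 0.544% (lower) of all probe sets. The nearest were 1451154_a_at of Celf2 (limma adjusted p = 0.0522), 1429735_at of Qk (0.0524) and 1431037_a_at of Elavl1 (0.0548). The lower probe set was 1433754_at of Mbnl2.

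Probe sets of the same gene did not always change together, which was tested on the within-array difference between the brightest and each other probe set of a gene. Of 88 such pairs in 30 member genes, 4 changed unequally at an adjusted p under 0.05 (limma, adjusted over 16752 pairs), against 0.376% of all pairs. A pair can change unequally only if a probe set in it changes. Member probe sets rose more often than all probe sets, so these shares do not compare like with like. In Elavl4 the probe set 1452894_at rose more than the brightest one. The brightest minus 1452894_at fell from 2.06 in wild type to 0.60 in null arrays, a change of -1.46 (SE 0.16; limma adjusted p = 0.0169). In Elavl2 the brightest rose more than 1433052_at, which differed by -0.08 between groups, and more than 1454454_at, by 1.94 and 0.95 (limma adjusted p = 0.0413 and 0.0480). In Msi2 the brightest, 1421230_a_at, rose more than 1421231_at, by 1.36 (limma adjusted p = 0.0430). The probe set 1421231_at read 4.85, 4.89 and 5.09 in wild type and 4.86, 4.68, 4.85 and 4.91 in null arrays, below the array medians. That of Elavl2, 1433052_at, lay near the medians. Whether probe sets this dim detect the message was not tested, and one that does not detect it cannot follow a rise. On 1458136_at, the Msi2 probe set of largest opposite difference (-0.23, limma adjusted p = 0.407), values were 8.10, 8.46 and 8.42 against 8.16, 7.99, 7.85 and 8.38, with overlap. In all, 4 of the 8 Msi2 probe sets had a negative difference and none of these passed. These tests were fragile: all 4 pairs lost their call without wild type 2, wild type 3, null 1 or null 2, and without null 3 only that of Elavl4 held (limma adjusted p = 0.0333).

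**Figure D3:**
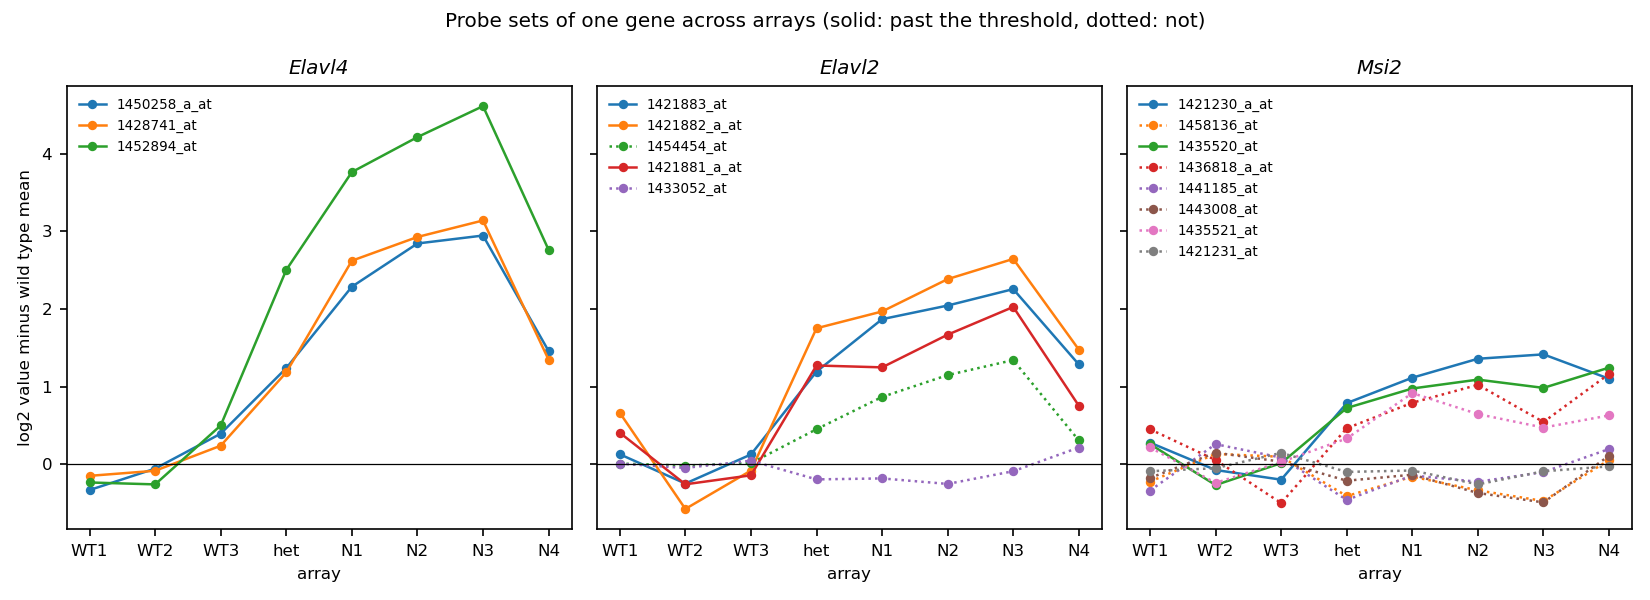
Each line follows 1 probe set of Elavl4, Elavl2 or Msi2 over the 8 arrays (WT1 to WT3 wild type, het heterozygote, N1 to N4 Ctip2 null), as its log2 value minus its wild type mean; solid lines passed the threshold and dotted lines did not. Probe sets of a gene separate in the null arrays, with 1452894_at of Elavl4 rising furthest and 1433052_at of Elavl2 staying near 0.

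The heterozygote stood between wild type and null on most of the risen probe sets. It lay above every wild type array on 18 of 18, below every null array on 11 and within or above the null range on 7. The share of all probe sets on which it lay above every wild type array was not counted. Lying above wild type was not particular to the risen probe sets. Among the brightest probe sets of relatives without a call, the heterozygote did so in Elavl1 (8.80), Celf1 (11.37), Celf5 (11.30) and Nova2 (10.22). It lay below every wild type array on 1421409_at of Msi1 (8.14), and within their range in Celf3, Celf6, Khdrbs1, Fxr1 and Fxr2. Expressed as a share of the distance from the wild type to the null mean, its position on the 18 ranged from 0.31, on 1426929_at of Celf4, to 1.23, on Khdrbs3, with a median of 0.66. In Elavl2 it read 9.71 on 1421883_at, 9.61 on 1421882_a_at and 8.31 on 1421881_a_at, and in Elavl3 10.88 on 1435871_at and 9.22 on 1452524_a_at. In Elavl4 it read 7.86 on 1452894_at, 8.65 on 1450258_a_at and 7.86 on 1428741_at, below all null arrays on each. In Celf4 it also lay below all null arrays, with 10.59 on 1452240_at, 9.83 on 1426929_at and 9.37 on 1426930_at. It read 10.97 on the risen probe set of Celf2, 9.06 on that of Nova1, 8.54 on Khdrbs2, 8.55 on Khdrbs3 and 7.77 on the risen probe set of Fmr1. In Msi2 it read 8.55 on 1421230_a_at and 7.88 on 1435520_at, again below all null arrays. The heterozygote's Bcl11b level on the brightest probe set was 12.43, against 12.29 ± 0.25 (SD, n = 3) in wild type. It is a single animal, so no test was made. When it was counted among the controls, 3 member probe sets rose, 1 of Elavl4 and 2 of Celf4, and 0.244% of all probe sets did.

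The heterozygote and null 2 and 3 were also the arrays with the widest spread of log2 values. With the array SD as a covariate, 8 member probe sets rose, 3 of Elavl2, 1 of Elavl4, 3 of Celf4 and 1 of Msi2, and 0.420% of all probe sets did. Null 4 had the lowest value of the null arrays on 16 of the 18 and null 3 the highest on 13. The share of all probe sets with this order was not counted. Among the null arrays, null 4 also had the narrowest spread (SD 1.90) and null 3 the widest (SD 2.05). All 18 differences were positive in every fit that was run. As all null arrays lay above all wild type arrays on each, dropping or weighting arrays could not change the sign. Calls held with each single array left out for 10 probe sets, of Elavl2 (1), Elavl4 (3), Celf4 (3), Msi2 (2) and Khdrbs2 (1). Without wild type 1 and null 2 together, the arrays of highest Ttr, 12 member probe sets rose, 8 of them among the 18, and 0.915% of all probe sets did.

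**Figure D4:**
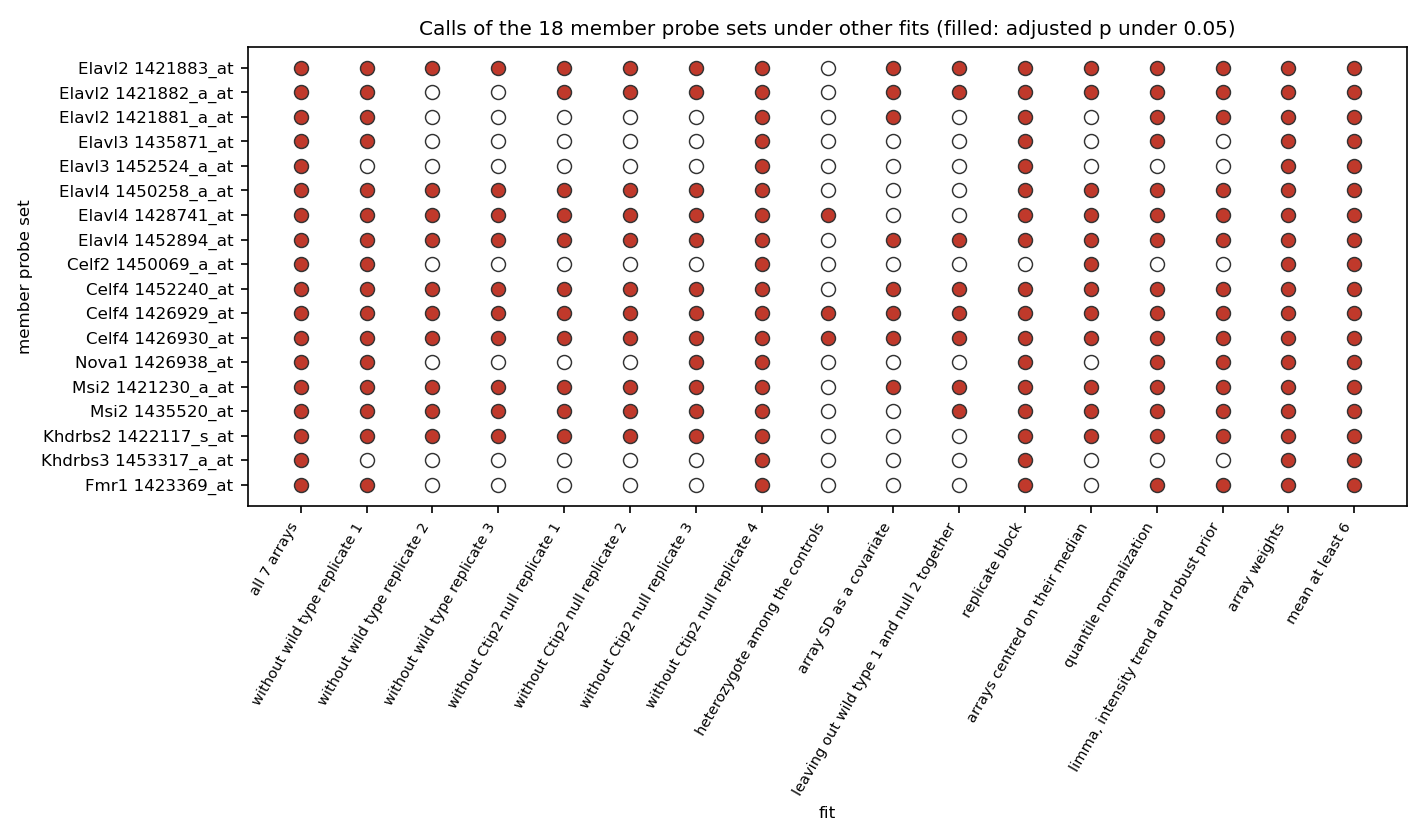
Each line of points is 1 of the 18 member probe sets that rose, and each column is a fit, starting with that of all 7 wild type and null arrays; a filled point marks an adjusted p under 0.05. The 3 probe sets of Celf4 are filled in every column except, for 1452240_at, the column with the heterozygote among the controls, which has 3 filled points.

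Few genes in 3 lists of other RNA-binding proteins rose and none fell, with 1 probe set per gene and p adjusted over 18193 genes, of which 2.86% rose and 0.786% fell. None of 34 splicing factors (SR proteins and others) passed in either direction, at a median difference of 0.22. Of 32 hnRNP proteins and relatives 1 rose, Hnrnpul2 by 1.91-fold (limma adjusted p = 0.0286), at a median of 0.20. Of 34 proteins of message transport, stability and translation 3 rose, at a median of 0.20: the translational repressor Samd4 2.34-fold (limma adjusted p = 0.0194), the Argonaute gene Ago4 2.21-fold (0.0364) and Larp1 1.58-fold (0.0332). The calls of Hnrnpul2, Ago4 and Larp1 held in 2 of the 7 fits with 1 array left out, those without wild type 1 or null 4 (limma adjusted p otherwise of up to 0.113, 0.142 and 0.128). That of Samd4 did not hold without wild type 2, wild type 3 or null 2 (up to 0.0853). None of these 4 calls held with the array SD as a covariate or the heterozygote among the controls. With 1 probe set per gene, the median was -0.08 over all genes and 0.49 over the members, of which 10 of 37 rose. Of these 10, 9 were probe sets that also rose in the main comparison. The brightest probe set of Celf2 had not passed there (limma adjusted p = 0.141). The difference in frequency between these lists and the members was not tested.

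Genes that mark neurons in general also rose in part. Of 16 pan-neuronal genes 5 rose and 0 fell, among them the neurofilament genes Nefl 6.03-fold and Nefm 4.96-fold and the synaptic vesicle gene Syn1 2.45-fold (limma adjusted p = 7.88e-04, 0.00455 and 0.00988). The median difference over the list was 0.49, against 0.49 over the members and -0.08 over all genes, each with 1 probe set per gene. Over all member probe sets, dim ones included, it was 0.24. The mean level of the list was 10.21 to 10.42 in wild type, 10.86 in the heterozygote and 10.86 to 11.20 in null arrays. The Nefl and Nefm calls held in every alternative fit, while that of Syn1 did not hold without wild type 3 (limma adjusted p = 0.0532), with the SD covariate, with the heterozygote among the controls or without wild type 1 and null 2. Of 10 interneuron markers 3 rose and 0 fell: the calcium-binding protein Calb2 2.86-fold, the dopamine synthesis enzyme Th 2.63-fold and the transcription factor Lhx6 2.09-fold. The mean level of the list was 7.11 to 7.59 in wild type, 7.93 in the heterozygote and 7.58 to 7.83 in null arrays. Of 13 medium spiny neuron markers 3 fell, led by the phosphoprotein gene Ppp1r1b (2.46-fold lower) and the phosphodiesterase gene Pde10a (2.06-fold lower), and 1 rose, Gad1, which makes GABA (2.67-fold). Of the astrocyte and microglia markers 1 of 8 each rose (Slc1a2 1.72-fold and C1qa 1.55-fold), with microglia levels of 6.56 to 6.62 in wild type and 6.79 to 7.16 in null arrays. Of the oligodendrocyte, endothelial, choroid plexus, cortical and red blood cell markers 0 of 7, 8, 7, 7 and 3 passed in either direction. Among the marker genes that passed, Pde10a and Gad1 kept their calls with any 1 array left out. Calb2 lost its call without wild type 2, and Ppp1r1b without wild type 2 or null 2. Drd1, the dopamine receptor that was the other marker to fall, lost its call without any 1 of wild type 2, null 1, null 2 or null 3. Sox2 and Slc1a2 held only without wild type 1 or without null 4, Th only without null 3 or null 4, Lhx6 only without null 4, and C1qa in none of these 7 fits. The part of the mix of neurons and other cells in the rises of the members was not tested.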

How the data were processed

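The authors computed the log2 values of each probe set using Bioconductor's RMA (background correction, quantile normalization, median polish), per the series' design text and the submitters' processing notes; the sources used here do not give its version or any filter. They were used as deposited. Quantile normalization before deposit can damp differences that affect most genes, and the SD still differed between arrays. Of 45037 probe sets, none of them controls, 34945 carry 1 gene symbol in the platform annotation, 932 several and 9160 none; members were matched by symbol.

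Wild type (n = 3) and Ctip2 null (n = 4) arrays were compared with limma 3.58.1 in R 4.3.3 (lmFit, eBayes, no covariate), with Benjamini-Hochberg adjustment over all probe sets, pairs or genes and a threshold of 0.05; the heterozygote entered no main fit. The study's own selection by SAM score was an alternative, since a moderated fit gives an adjusted p for each probe set. A gene in a list was represented by its probe set of highest mean over the 7 arrays. Of 214 list entries 197 were measured. The number of arrays limits the precision. Scripts were tested on simulated data. Figures used matplotlib 3.10.9 in Python 3.11.15.

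Members, lists, the array SD covariate and the fit that drops wild type 1 together with null 2 were chosen with earlier results of these data known. Values in every wild type and null array are given for each member probe set past the threshold (with the heterozygote's), for the brightest probe set of relatives without a call, and for the largest opposite difference in a called gene; up to 3 passing genes per list are named, and other members are given by ranges. Ttr and Drd1 were named after their values were seen. Alternatives were other tests, thresholds, filters, scalings and sets of arrays.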

Additional observations from a re-analysis of the deposited data

Results flagged for a closer look

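Among the 4 null animals, 8 of 125 member probe sets had 1 array standing apart from the other 3 past Dixon's 95% critical value, which chance alone passes in about 5% of groups. Null 3 was the high array on 1450069_a_at of Celf2, at 11.34 against 11.14 to 11.17, and on 1418245_a_at of Rbfox2, at 10.98 against 9.62 to 9.70. Null 4 was the low array on Khdrbs3, at 7.87 against 8.51 to 8.55, on 1425932_a_at of Celf1, at 6.07 against 6.20 to 6.22, and on 1450916_at of Stau2, at 9.04 against 9.58 to 9.66. It was the high array on 1451179_a_at of Qk, at 10.38 against 9.95 to 10.01, and on Cpeb1, at 4.94 against 4.68 to 4.70. Null 1 was low on 1429318_a_at of Qk, at 7.98 against 8.27 to 8.33. Of these probe sets, those of Celf2 and Khdrbs3 are among the 18 that rose. No mean level of the 14 gene lists was set apart in this way.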

How the results depend on the processing

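The 18 risen member probe sets kept a positive difference in every fit, while the counts depended on the fit. In fits that only drop or weight arrays, that sign was fixed by the lack of overlap between the groups. Counts are given as higher and lower member probe sets (18 and 0 in the main comparison), then as higher and lower over all probe sets (840 and 204), and last as unequal member pairs (4). Array weights gave 41 and 1, 2686 and 965, and 10. The heterozygote among the controls gave 3 and 0, 110 and 96, and 0; as a group of its own it changed nothing. The array SD covariate gave 8 and 0, 189 and 93, and 0. Without wild type 1 and null 2 the counts were 12 and 0, 412 and 62, and 0. An adjusted p under 0.1 gave 29 and 1, 1690 and 449, and 9, and one under 0.01 gave 10 and 0, 190 and 52, and 0. The SAM score beyond 2 gave 49 and 3, and 4630 and 5717, so that over all probe sets lower calls outnumbered higher ones. Arrays centred on their median gave 12 and 0, and 548 and 124, and quantile normalization 18 and 0, and 821 and 318. A robust trended prior gave 16 and 0, 882 and 206, and 2. Keeping only means of at least 6 gave 21 and 0, and 932 and 196, and 1 probe set per gene 10 higher of 37 members. No member probe set carried several symbols, so that alternative adds nothing. Leaving out single arrays gave 10 to 30 higher and 0 to 1 lower member probe sets, 210 to 1733 and 76 to 443 over all, and 0 to 9 pairs; the highest member counts were without wild type 1 (30) and null 4 (26). Each array moved the count over all probe sets by over 1.5 times in at least 1 direction when left out.

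The replicate block gave 26 and 1, 1696 and 212, and 0. The deviations of arrays sharing a number correlated at -0.25, -0.31 and -0.17, and those of arrays of unlike number at -0.42 to 0.37. With so few arrays, these values cannot tell whether the numbers pair the animals. Differences near 0 that passed no test changed sign in some fits. With the SD covariate Khdrbs1 went to -0.11, 1433052_at of Elavl2 to 0.039, 1444533_at of Celf2 to 0.029 and 1458136_at of Msi2 to 0.053. With quantile normalization Celf3 went to -0.033 and Khdrbs1 to -0.17. Without wild type 1 and null 2 together Celf6 went to -0.012 and Fxr1 to 0.013. With the heterozygote as a control Msi1 went to 0.036, and with centred arrays Msi1 went to 0.0028 and Fxr1 to 0.018. Fxr1 went to 0.036 with array weights and 0.18 with the block. Leaving out single arrays moved Msi1 from -0.12 to 0.0023, Khdrbs1 from -0.028 to 0.092, Fxr1 from -0.19 to 0.18 and 1452550_a_at of Fmr1 from -0.22 to 0.030. The cause was not tested.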
